A study of Mus musculus with 36 samples.

Results

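Potassium channels were examined as the protein-coding genes whose symbol begins with Kcn, which were found by matching the Ensembl identifiers of the count table to GENCODE M21 (GRCm38). There are 94 such genes among the 52636 rows of the table, in 21 subfamilies from Kcna to Kcnv, and 5 noncoding genes with a Kcn symbol were left out. A filter on low counts was passed by 43 of the 94, which are the genes that were tested, along with 15330 genes in all.

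RNA was sequenced from cells that FACS had separated by colour from diaphragm, pectoralis, forelimb and hindlimb muscles of S100β-GFP;NG2-dsRed mice. In these animals, GFP is driven by the S100β promoter and dsRed by the promoter of NG2 (Cspg4), and every library, whatever its cell type, came from mice that carry both transgenes. The comparison is between doubly labelled NG2DsRed+/S100GFP+ cells, which the study takes to be perisynaptic Schwann cells (PSCs) of the neuromuscular junction, S100GFP+ cells and NG2DsRed+ cells, with 9, 8 and 10 libraries in the table of the 36 in the labels. The study removed failed libraries and counts fewer S100GFP+ libraries than the table holds, without naming the one left out, so all 8 were used, and each was also left out in turn. The study's methods give juvenile animals from postnatal day 15 to 21, with the cells of 1 mouse in a library, and do not say whether libraries of different cell types share a mouse. The age ranges in the labels begin at day 15 and end at a day that rises with the library number from 21 to 46, so ages of single libraries were not used. Sorting by a reporter gives cells in which a promoter was active rather than one cell type, and S100GFP+ cells here are those without dsRed.

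Potassium channels let K+ leave or enter a cell, and through this they set the resting voltage, shape electrical activity and carry K+ away from active synapses and axons. Pore-forming subunits fall into voltage-gated (Kcna to Kcnd, Kcnq, Kcnh), inwardly rectifying (Kcnj), tandem-pore leak (Kcnk) and calcium- or sodium-activated (Kcnma, Kcnn, Kcnt) groups, while Kcnab, Kcne, Kcnip and Kcnmb genes encode subunits that modify them. In glia, inward rectifiers are best known for K+ uptake, and in vessels ATP-sensitive and calcium-activated channels are known for control of muscle tone.

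Counts on genes ranged from 5221655 to 9592875 per library, and 3 genes (Lars2, Gm23935 and Gm15564) took from 3.64% to 40.0% of them. The number of Kcn genes with at least 1 count was 53 to 66 in PSC libraries other than library 18, which had 32, and 58 to 72 in NG2DsRed+ libraries. S100GFP+ library 22 had counts on all 94, libraries 17 and 14 on 84 and 79, and the other 5 on 53 to 73. Levels below are TMM-normalized CPM (counts per 1000000), and only values per kilobase of exon compare one gene with another. PSCs carried the Schwann cell markers, whose sum was 1996 to 2921 CPM in PSC libraries against 56.6 to 379 in S100GFP+ and 22.0 to 74.6 in NG2DsRed+ libraries. The S100GFP+ libraries, which the study calls Schwann cells, were low in those markers. Their myelinating Schwann cell markers summed to 1483 to 3519 CPM, a range that also held the PSC sums of 2472 to 3329 CPM. S100GFP+ libraries had high sums of macrophage and leukocyte (1055 to 10174 CPM) and fibroblast (9185 to 19928 CPM) markers. NG2DsRed+ libraries were high in pericyte and smooth muscle markers (6728 to 14410 CPM). They also held more of the endothelial markers (1159 to 2751 CPM) than PSC libraries (86.2 to 492 CPM), and a fibroblast marker sum of 1236 to 11958 CPM against 417 to 1737 CPM in PSC libraries, and the part of these cells in the potassium channel levels was not tested. A lower level in such sorted bulk RNA can mean fewer cells of a type or less RNA per cell, and these cannot be told apart.

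Different members of the family led in PSCs and in NG2DsRed+ cells. PSC RNA was dominated by the voltage-gated genes Kcna1, Kcna2 and Kcna6, with the glial inward rectifier Kcnj10, the BK channel subunit Kcnmb4, Kcnn2, Kcnh8, Kcnk10 and Kcnq5 also above S100GFP+ and NG2DsRed+ cells. NG2DsRed+ cells were led by Kcnj8, the pore of the vascular ATP-sensitive channel, with Kcna5, Kcne4 and Kcnab1. S100GFP+ cells had a mixed set at lower levels, in which Kcnk, Kcnn and Kcnq genes held a larger part. Per kilobase of exon, Kcnj8 and Kcna1, which led in NG2DsRed+ cells and PSCs, were also the highest in S100GFP+ cells.

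Against S100GFP+ cells, 27 of the 43 tested Kcn genes differed in PSCs by edgeR's quasi-likelihood test at a Benjamini-Hochberg adjusted p under 0.05, compared with 47.0% of all genes tested. Of these, 11 were higher (22.9% of all genes were) and 16 lower (24.1%). Against NG2DsRed+ cells, 34 of 43 differed, where the figure for all genes was 44.0%, with 14 higher (20.9%) and 20 lower (23.1%). Between S100GFP+ and NG2DsRed+ cells there were 26 (33.3% of all genes), 15 of them higher in S100GFP+ cells (18.1%) and 11 lower (15.2%). The median log2 fold change of the 43 genes was -0.62 against S100GFP+ cells, -1.04 against NG2DsRed+ cells and 0.61 between the latter, beside 0.04, 0.02 and -0.02 over all tested genes. Without S100GFP+ libraries 14, 17 and 22, the first of these medians was 0.71 over the 48 Kcn genes then tested, beside 0.16 over all genes. With any 1 of the 8 S100GFP+ libraries left out, 12 or 13 Kcn genes were higher in PSCs and 16 or 17 lower, and 0 of the 27 calls were lost.

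In both PSC comparisons, which share the PSC libraries, 9 genes were higher (13.9% of all genes) and 11 lower (14.4%). The 9 were Kcna1, Kcna2, Kcna6, Kcnh8, Kcnj10, Kcnk10, Kcnmb4, Kcnn2 and Kcnq5, and for all of them except Kcnq5 every PSC library was above every other library. This separation was seen for 8 of 43 Kcn genes and for 3.24% of all genes. The 11 included Kcnd1, Kcne3, Kcnj8, Kcnk3, Kcnk6, Kcnma1, Kcnn3, Kcnq1 and Kcnt2. NG2DsRed+ cells were higher than both others for 10 genes (8.44% of all genes), and every NG2DsRed+ library was above every other for Kcnab1, Kcne4, Kcnj2 and Kcnj8, that is 4 of 43 against 2.31%. S100GFP+ cells were higher than both for 8 genes (11.8% of all genes), yet for 0 of 43 was every S100GFP+ library above all the rest, a pattern that 4.92% of all genes showed. Another 6 tested genes, Kcnd3, Kcng2, Kcnip3, Kcnrg, Kcns3 and Kcnt1, passed the threshold in none of the 3 comparisons.

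**Figure D1:**
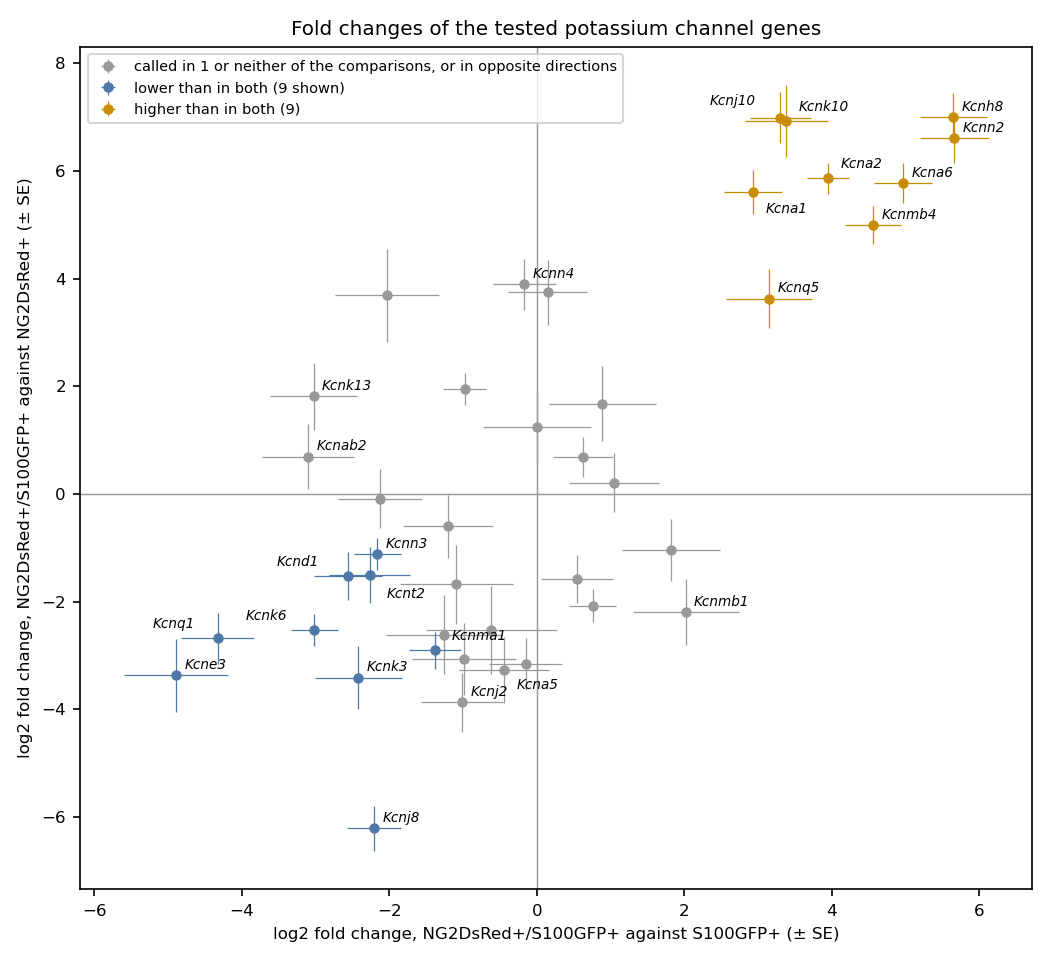
Log2 fold change of PSCs (NG2DsRed+/S100GFP+) against S100GFP+ cells (horizontal) and against NG2DsRed+ cells (vertical) for 41 of the 43 tested potassium channel genes, with bars for the standard error. Points at the upper right are the 9 genes higher in PSCs than in both, and blue points at the lower left are 9 of the 11 that were lower; both axes share the PSC libraries.

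Summed over all 94 genes, the potassium channel level was 1455 ± 212 CPM in PSCs (SD, n = 9), 402 ± 60.2 CPM in S100GFP+ cells (SD, n = 8) and 935 ± 193 CPM in NG2DsRed+ cells (SD, n = 10). Kcna genes made up 73.0% ± 6.32 of this sum in PSCs, against 26.0% ± 10.9 in S100GFP+ and 11.2% ± 4.67 in NG2DsRed+ cells. Per kilobase of exon the Kcna share in PSCs was 62.9% ± 6.37. Kcnj genes held 56.1% ± 6.04 of the sum in NG2DsRed+ cells (66.0% ± 6.02 per kilobase), but 11.5% ± 4.53 in S100GFP+ cells and 6.92% ± 1.57 in PSCs. Spread was wider in S100GFP+ cells, where the share of Kcnk was 14.3% ± 2.37, that of Kcnn 12.1% ± 5.76 and that of Kcnq 8.03% ± 3.05. The corresponding shares in PSCs were 1.99% ± 0.569, 5.25% ± 2.94 and 0.978% ± 0.287.

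**Figure D2:**
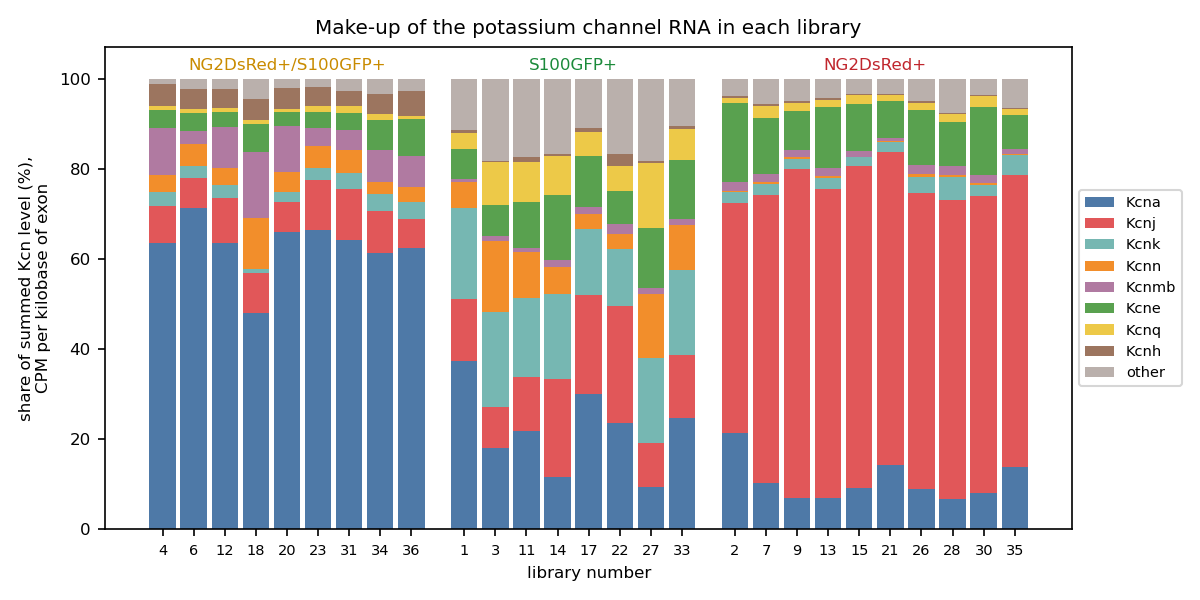
Share (%) of the summed potassium channel level, in CPM per kilobase of exon, that each subfamily held in each library, with the libraries of the 3 cell types side by side and named by number. Kcna (dark blue) fills 62.9% of the PSC bars on average and Kcnj (red) 66.0% of the NG2DsRed+ bars, while no single subfamily dominates in S100GFP+ libraries.

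Per kilobase of exon, the order of single genes in PSCs began with Kcna1 (79.2 CPM per kilobase), Kcna2 (47.6), Kcna6 (19.4), Kcnmb4 (17.0) and Kcnj10 (15.8), all as means over 9 libraries. In NG2DsRed+ cells it began with Kcnj8 (193 CPM per kilobase), Kcne4 (34.8) and Kcna5 (29.3). S100GFP+ cells had Kcnj8 (12.1 CPM per kilobase), Kcna1 (10.4) and Kcnn4 (5.91) at the top.

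**Figure D3:**
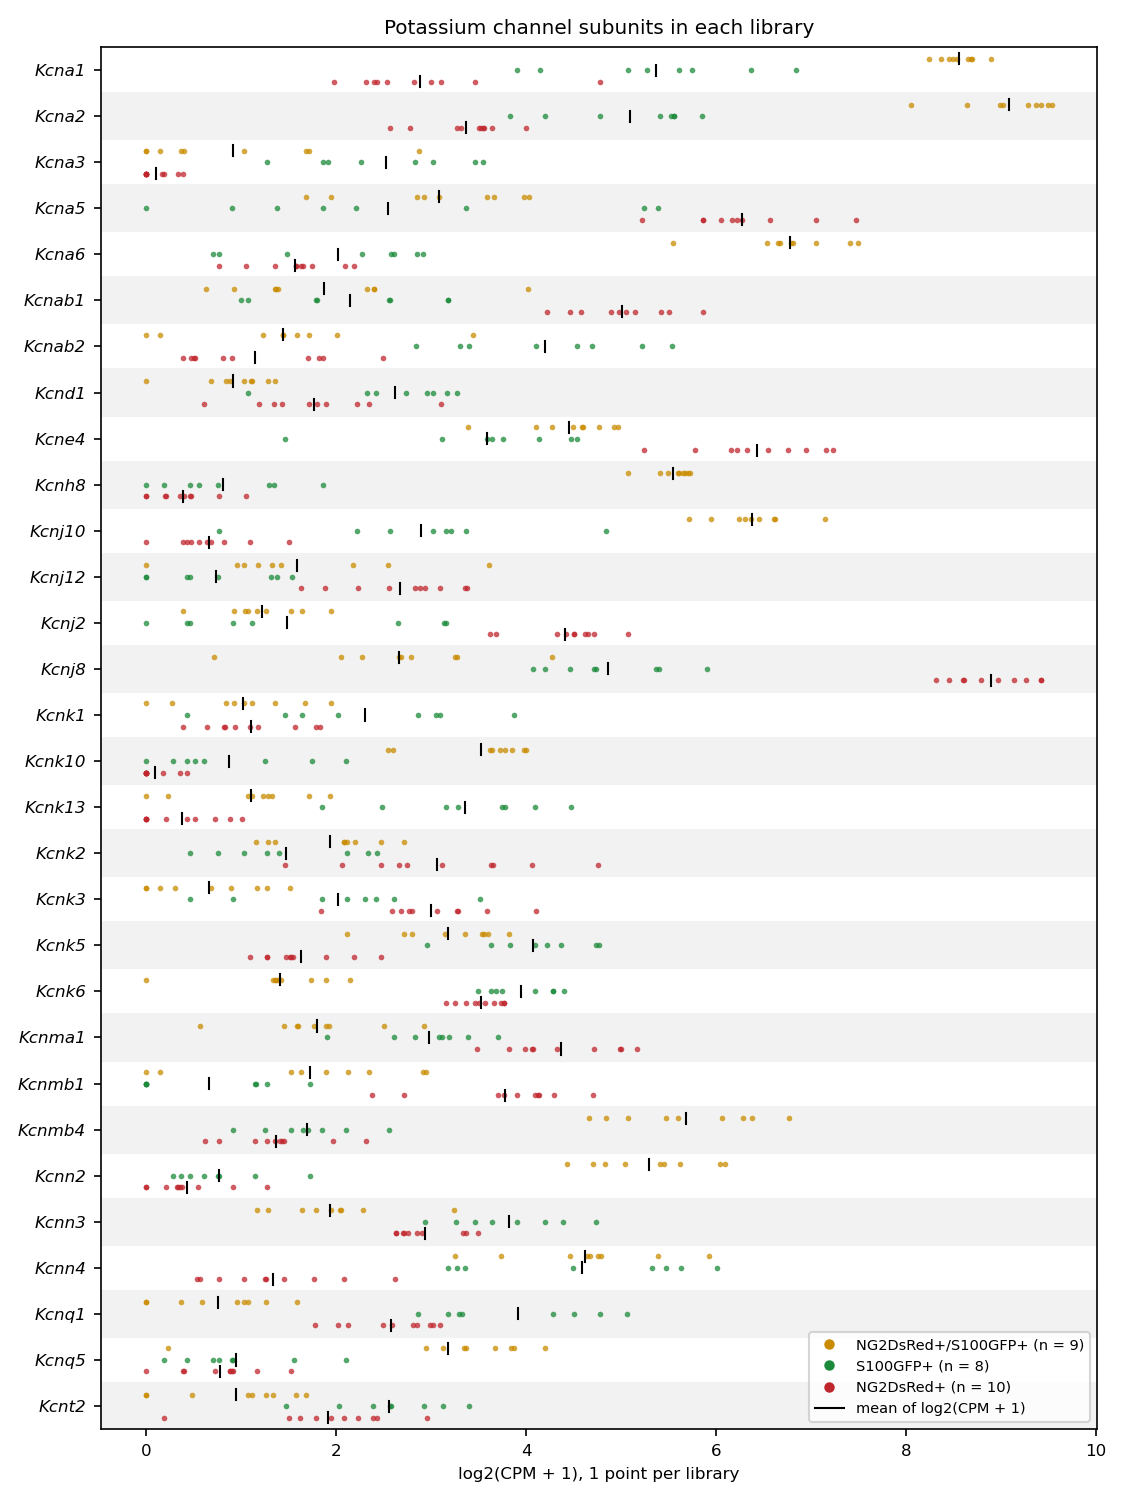
Level of 30 potassium channel genes with a mean of at least 5 CPM in a cell type, as log2(CPM + 1) with 1 point per library and a black bar at the mean of each cell type. Points of PSC libraries lie to the right of all others for Kcna1, Kcna2, Kcna6, Kcnh8, Kcnj10, Kcnk10, Kcnmb4 and Kcnn2, and those of NG2DsRed+ libraries for Kcnab1, Kcne4, Kcnj2 and Kcnj8.

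The Kcna subfamily encodes Shaker-type channels that open on depolarization and limit firing in axons. Kcna2 (chr3:107101146-107115005, plus strand) ranged from 263 to 741 CPM (median 622) in PSC libraries, from 13.2 to 56.6 CPM (median 43.3) in S100GFP+ libraries and from 4.94 to 15.0 CPM (median 10.4) in NG2DsRed+ libraries. PSC libraries did not overlap any other library, and the lowest of them was library 18. The log2 fold change was 3.95 (SE 0.29, adjusted p = 2.8e-12) against S100GFP+ cells and 5.86 (SE 0.29, adjusted p = 1.16e-15) against NG2DsRed+ cells by edgeR. Kcna1 (chr6:126640397-126646384, minus strand), whose product assembles with that of Kcna2 in axons, ranged from 302 to 474 CPM (median 371) in PSC libraries, from 13.9 to 114 CPM (median 42.7) in S100GFP+ libraries and from 2.93 to 26.4 CPM (median 5.43) in NG2DsRed+ libraries. Again no PSC library overlapped the others, and the lowest S100GFP+ libraries fell within the NG2DsRed+ range. Its log2 fold changes were 2.93 (SE 0.40, adjusted p = 4.12e-07) and 5.61 (SE 0.41, adjusted p = 4.17e-12), and S100GFP+ cells were themselves above NG2DsRed+ cells by 2.67 (SE 0.37, adjusted p = 1.37e-06).

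Kcna6 (chr6:126708329-126740674, minus strand), a further channel of this kind, had 45.9 to 179 CPM (median 109.7) in PSC libraries, 0.625 to 6.53 CPM (median 4.40) in S100GFP+ libraries and 0.701 to 3.55 CPM (median 2.04) in NG2DsRed+ libraries. The NG2DsRed+ values lay within the S100GFP+ range, and the lowest PSC library, 18, was above them all. PSCs exceeded S100GFP+ cells by a log2 fold change of 4.97 (SE 0.39, adjusted p = 1.45e-11) and NG2DsRed+ cells by 5.78 (SE 0.37, adjusted p = 2.44e-13), while the difference between the latter, 0.80 (SE 0.37, adjusted p = 0.0948), did not pass. An antisense gene, Gm26673, shares 39.6% of the exon bases of Kcna6, and it had a mean of 0.268 CPM in PSCs. The sources used here do not say whether counting was by strand.

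Kcna5, a channel of vascular smooth muscle that lies next to Kcna1 on the same chromosome (chr6:126532551-126535412, minus strand), was highest in NG2DsRed+ cells. It ranged from 2.20 to 15.3 CPM (median 7.47) in PSC libraries, from 0 to 40.9 CPM (median 3.13) in S100GFP+ libraries and from 36.2 to 176 CPM (median 72.3) in NG2DsRed+ libraries. NG2DsRed+ libraries were above all PSC libraries, and S100GFP+ libraries divided into 17 and 22, at 40.9 and 36.7 CPM, and the other 6 at or below 9.35 CPM. PSCs were lower than NG2DsRed+ cells by edgeR, with a log2 fold change of -3.27 (SE 0.62, adjusted p = 6.91e-05). The difference of PSCs from S100GFP+ cells was -0.45 (SE 0.61, adjusted p = 0.577), and without S100GFP+ libraries 14, 17 and 22 it was 2.26 (adjusted p = 0.000911), higher in PSCs. Those libraries held its highest S100GFP+ values, so leaving them out raises the difference, and the change is no independent result.

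Kcna3, known from lymphocytes and macrophages, had 1.40 ± 2.05 CPM in PSCs, 5.57 ± 3.48 CPM in S100GFP+ cells and 0.0843 ± 0.121 CPM in NG2DsRed+ cells (SD). Its PSC and S100GFP+ libraries overlapped, and PSCs were lower than S100GFP+ cells (-2.03 (SE 0.70, adjusted p = 0.0185)) and higher than NG2DsRed+ cells (3.69 (SE 0.87, adjusted p = 0.00092)) on the log2 scale, the latter not by limma-voom (1.16, adjusted p = 0.186). The other Kcna genes, Kcna4, Kcna7 and Kcna10, did not pass the filter.

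The windows of 250 bases upstream of the RefSeq start of Kcna6 (highest in PSCs) and Kcna5 (highest in NG2DsRed+ cells) are printed here because these genes, which lie on either side of Kcna1, differ in the cell type that leads. They are from GRCm38.p6, read 5′ to 3′ on the strand of the gene, with CG pairs in capitals.
Kcna6 (chr6:126740675-126740924, minus strand): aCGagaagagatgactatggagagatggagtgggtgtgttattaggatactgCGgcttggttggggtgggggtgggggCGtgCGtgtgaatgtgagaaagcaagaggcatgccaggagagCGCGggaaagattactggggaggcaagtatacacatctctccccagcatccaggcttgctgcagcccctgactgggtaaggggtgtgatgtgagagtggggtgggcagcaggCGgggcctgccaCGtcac
Kcna5 (chr6:126535556-126535805, minus strand): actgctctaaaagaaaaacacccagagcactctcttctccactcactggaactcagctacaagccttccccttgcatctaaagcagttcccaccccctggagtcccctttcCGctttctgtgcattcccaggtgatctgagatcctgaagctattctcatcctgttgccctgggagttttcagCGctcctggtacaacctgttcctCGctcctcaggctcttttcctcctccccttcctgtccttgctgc
The Kcna6 window has 8 CG pairs and a G+C content of 58.8%, and the Kcna5 window 3 pairs and 53.2%. Over 20595 genes with such a window the median is 8.0 pairs and 54.0%. No window was printed for Kcna1, which had none in the table used.

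Among the other voltage-gated pore genes, Kcnd1, which encodes a rapidly inactivating A-type channel, had means of 0.954 ± 0.470 CPM in PSCs, 5.71 ± 2.47 CPM in S100GFP+ cells and 2.79 ± 2.00 CPM in NG2DsRed+ cells (SD), and PSCs were lower, with log2 fold changes of -2.56 and -1.53 (adjusted p = 3.85e-05 and 0.00583). Kcnc genes, known for fast firing in neurons, were tested for 0 of 4 members, and of the 10 electrically silent subunits (Kcnf, Kcng, Kcns and Kcnv) 2 were tested and neither passed the threshold.

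Of the cytoplasmic beta subunits of these channels, Kcnab1 was highest in NG2DsRed+ cells and Kcnab2 in S100GFP+ cells. Kcnab1 ranged from 0.552 to 15.2 CPM (median 1.63) in PSC libraries, from 1.000 to 8.06 CPM (median 3.68) in S100GFP+ libraries and from 17.6 to 57.1 CPM (median 31.3) in NG2DsRed+ libraries. Every NG2DsRed+ library was above every other, and the log2 fold change of PSCs against NG2DsRed+ cells was -3.16 (SE 0.48, adjusted p = 3.58e-06), with -0.15 (SE 0.49, adjusted p = 0.828) against S100GFP+ cells. Kcnab2, in turn, had 2.45 ± 2.94 CPM in PSCs, 21.2 ± 14.0 CPM in S100GFP+ cells and 1.52 ± 1.44 CPM in NG2DsRed+ cells (SD), and PSCs were lower than S100GFP+ cells by a log2 fold change of -3.11 (SE 0.62, adjusted p = 0.000138).

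Inward rectifiers pass K+ more easily into the cell than out of it. Kcnj10 (chr1:172341210-172374085, plus strand), the channel with which glia take up K+, ranged from 51.7 to 141 CPM (median 81.8) in PSC libraries, from 0.706 to 27.7 CPM (median 7.51) in S100GFP+ libraries and from 0 to 1.84 CPM (median 0.519) in NG2DsRed+ libraries. Its PSC libraries were all above the highest S100GFP+ library, number 33, which was also the S100GFP+ library with the largest sum of Schwann cell markers. The log2 fold change of PSCs was 3.31 (SE 0.42, adjusted p = 1.15e-07) against S100GFP+ cells and 6.99 (SE 0.48, adjusted p = 8.68e-13) against NG2DsRed+ cells, and S100GFP+ cells exceeded NG2DsRed+ cells by 3.68 (SE 0.46, adjusted p = 2.18e-07) by edgeR.

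Kcnj8 (chr6:142564837-142571614, minus strand) encodes the pore of the ATP-sensitive channel of vessels. It ranged from 0.648 to 18.3 CPM (median 5.44) in PSC libraries, from 15.9 to 58.9 CPM (median 25.5) in S100GFP+ libraries and from 316 to 686 CPM (median 471) in NG2DsRed+ libraries. NG2DsRed+ libraries stood above all others with no overlap, S100GFP+ libraries were between, and only the highest PSC library reached the lower S100GFP+ values. PSCs were lower than both, with a log2 fold change of -2.21 (SE 0.36, adjusted p = 9.39e-06) against S100GFP+ cells and of -6.21 (SE 0.42, adjusted p = 6.21e-13) against NG2DsRed+ cells. Its regulatory partner, the sulfonylurea receptor gene Abcc9, followed the same order, from 1.97 to 17.3 CPM (median 5.34) in PSC libraries, from 31.7 to 123 CPM (median 70.2) in S100GFP+ libraries and from 288 to 828.5 CPM (median 527) in NG2DsRed+ libraries. The NG2DsRed+ and PSC ranges of Abcc9 did not overlap each other or those of S100GFP+ cells, and its log2 fold changes in PSCs were -3.29 (SE 0.37, adjusted p = 1.68e-08) and -6.32 (SE 0.42, adjusted p = 4.5e-13).

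Promoter windows of the inward rectifiers that led in PSCs and in NG2DsRed+ cells follow, in the same form, with CG pairs in capitals.
Kcnj10 (chr1:172340960-172341209, plus strand): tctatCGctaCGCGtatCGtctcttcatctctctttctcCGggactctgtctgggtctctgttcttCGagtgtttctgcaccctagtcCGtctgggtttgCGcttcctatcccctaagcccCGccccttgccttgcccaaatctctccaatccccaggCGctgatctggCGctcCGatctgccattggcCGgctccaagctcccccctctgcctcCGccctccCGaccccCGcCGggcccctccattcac
Kcnj8 (chr6:142571615-142571864, minus strand): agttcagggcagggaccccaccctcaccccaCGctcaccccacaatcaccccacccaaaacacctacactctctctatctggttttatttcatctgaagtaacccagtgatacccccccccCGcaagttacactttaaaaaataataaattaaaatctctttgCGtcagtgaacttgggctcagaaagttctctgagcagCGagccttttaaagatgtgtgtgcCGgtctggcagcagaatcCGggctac
Kcnj10 has 17 CG pairs in this window, more than 71.4% of all genes, and Kcnj8 has 6, more than 41.9%.

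Kcnj2, a strong inward rectifier of muscle and endothelium, ranged from 0.313 to 2.86 CPM (median 1.24) in PSC libraries, from 0 to 7.90 CPM (median 1.02) in S100GFP+ libraries and from 11.3 to 32.7 CPM (median 21.8) in NG2DsRed+ libraries. NG2DsRed+ libraries did not overlap the rest, and PSCs were lower, with a log2 fold change of -3.87 (SE 0.55, adjusted p = 1.12e-06). Against S100GFP+ cells its difference in PSCs was -1.01 (SE 0.55, adjusted p = 0.137), and without S100GFP+ libraries 14, 17 and 22 it was 1.44 (adjusted p = 0.0198), in the other direction. Those libraries held its highest S100GFP+ values, so leaving them out raises the difference, and the change is no independent result. Kcnj12, a close relative, had 2.90 ± 3.45 CPM in PSCs, 0.799 ± 0.752 CPM in S100GFP+ cells and 5.87 ± 2.54 CPM in NG2DsRed+ cells (SD), with overlap of PSCs with both. Its log2 fold change was 1.82 (SE 0.67, adjusted p = 0.0253) against S100GFP+ cells and -1.04 (SE 0.57, adjusted p = 0.145) against NG2DsRed+ cells, and without PSC library 18 these were 1.25 (adjusted p = 0.0852) and -1.58 (adjusted p = 0.0165). By limma-voom with all libraries they were 1.38 (adjusted p = 0.152) and -2.16 (adjusted p = 0.000666). Kcnj11 and Kcnj15 stayed under 5 CPM in each cell type and were lower in PSCs than in NG2DsRed+ cells, with log2 fold changes of -2.53 and -2.61. The remaining 9 of the 15 Kcnj genes did not pass the filter.

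Leak channels of the Kcnk subfamily, which hold the resting voltage near that of K+, had members on both sides in PSCs. Of 7 tested, 1 was higher (22.9% of all genes were) and 5 were lower (24.1%) in PSCs than in S100GFP+ cells, while 3 were higher (20.9%) and 3 lower (23.1%) than in NG2DsRed+ cells. The gene higher than in S100GFP+ cells was Kcnk10 (chr12:98429437-98578310, minus strand), a stretch- and lipid-sensitive channel, which ranged from 4.86 to 15.0 CPM (median 12.2) in PSC libraries, from 0 to 3.29 CPM (median 0.482) in S100GFP+ libraries and from 0 to 0.351 CPM (median 0) in NG2DsRed+ libraries. PSC libraries were above all others, the lowest being library 31. The log2 fold changes were 3.39 (SE 0.56, adjusted p = 1.04e-05) and 6.92 (SE 0.67, adjusted p = 1.06e-09).

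Its close relative Kcnk2 was highest in NG2DsRed+ cells, where it had 1.75 to 26.0 CPM (median 6.68), against 1.23 to 5.58 CPM (median 3.23) in PSC libraries and 0.375 to 4.41 CPM (median 1.53) in S100GFP+ libraries. The ranges overlapped, and the log2 fold change of PSCs against NG2DsRed+ cells was -1.58 (SE 0.45, adjusted p = 0.00516) by edgeR. Kcnk3, an acid-sensitive leak channel, had 0.705 ± 0.686 CPM in PSCs, 3.88 ± 3.11 CPM in S100GFP+ cells and 7.67 ± 3.81 CPM in NG2DsRed+ cells (SD), and PSCs were lower, with log2 fold changes of -2.42 and -3.41.

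Kcnk13, Kcnk5, Kcnk6 and Kcnk1 were at their highest mean in S100GFP+ cells. Kcnk13, known from microglia, ranged from 0 to 2.82 CPM (median 1.36) in PSC libraries, from 2.60 to 21.2 CPM (median 10.6) in S100GFP+ libraries and from 0 to 1.02 CPM (median 0.254) in NG2DsRed+ libraries. All S100GFP+ libraries but 1, library 17, were above every PSC library, and the log2 fold change of PSCs was -3.03 (SE 0.59, adjusted p = 9.86e-05) against S100GFP+ and 1.82 (SE 0.62, adjusted p = 0.0184) against NG2DsRed+ cells. Kcnk6, a leak channel known from vessels, had 1.83 ± 0.955 CPM in PSCs, 14.9 ± 3.84 CPM in S100GFP+ cells and 10.6 ± 1.71 CPM in NG2DsRed+ cells (SD), with PSC libraries below both others without overlap and log2 fold changes of -3.02 (SE 0.31, adjusted p = 3.1e-09) and -2.53 (SE 0.30, adjusted p = 5.21e-08).

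For Kcnk5, an alkali-activated channel, PSCs lay between the other cell types, with 8.62 ± 3.18 CPM in PSCs, 17.0 ± 6.73 CPM in S100GFP+ cells and 2.23 ± 1.08 CPM in NG2DsRed+ cells (SD). They were lower than S100GFP+ cells, with a log2 fold change of -0.98 (SE 0.29, adjusted p = 0.00658), and higher than NG2DsRed+ cells, with one of 1.95 (SE 0.29, adjusted p = 2.62e-06), the first not without S100GFP+ libraries 14, 17 and 22 (-0.82, adjusted p = 0.0577). Kcnk1 was lower in PSCs than in S100GFP+ cells, 1.19 against 5.26 CPM on average, with a log2 fold change of -2.12 (SE 0.57, adjusted p = 0.00299), and not by limma-voom (-1.44, adjusted p = 0.0585). Its level in NG2DsRed+ cells was 1.27 CPM.

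Among the channels opened by calcium, some subunits were higher and others lower in PSCs. Kcnma1, the pore of the large-conductance BK channel, ranged from 0.478 to 6.58 CPM (median 2.42) in PSC libraries, from 2.75 to 12.0 CPM (median 7.59) in S100GFP+ libraries and from 10.2 to 34.9 CPM (median 17.4) in NG2DsRed+ libraries. It was lowest in PSCs, whose libraries overlapped those of S100GFP+ but not of NG2DsRed+ cells, with log2 fold changes of -1.38 (SE 0.35, adjusted p = 0.00176) and -2.90 (SE 0.35, adjusted p = 5.77e-08). The BK beta subunit Kcnmb4 (chr10:116417861-116473878, minus strand), best known from neurons, went the other way, from 24.4 to 108 CPM (median 47.5) in PSC libraries, from 0.882 to 4.88 CPM (median 2.19) in S100GFP+ libraries and from 0.534 to 3.97 CPM (median 1.60) in NG2DsRed+ libraries. PSC libraries were far above both others, and library 18 was the highest. PSCs exceeded S100GFP+ cells by 4.57 (SE 0.38, adjusted p = 4.03e-11) and NG2DsRed+ cells by 5.00 (SE 0.35, adjusted p = 1.67e-12) on the log2 scale. An antisense gene, Kcnmb4os2, shares 20.8% of the exon bases of Kcnmb4 and had 4.57 CPM in PSCs, 0.540 in S100GFP+ and 0.0731 in NG2DsRed+ cells on average.

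Kcnmb1, the beta subunit of smooth muscle, was instead highest in NG2DsRed+ cells, from 0 to 6.72 CPM (median 2.72) in PSC libraries, from 0 to 2.30 CPM (median 0.610) in S100GFP+ libraries and from 4.20 to 25.1 CPM (median 15.1) in NG2DsRed+ libraries. PSC and NG2DsRed+ libraries overlapped a little, and PSCs were lower than NG2DsRed+ cells (-2.19 (SE 0.61, adjusted p = 0.00409)) and higher than S100GFP+ cells (2.02 (SE 0.72, adjusted p = 0.0219)). With only PSCs and S100GFP+ cells in the fit, the latter was 1.99 (adjusted p = 0.0816).

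The Kcnn genes encode calcium-activated channels of small conductance, apart from Kcnn4, whose channel is of intermediate conductance. Kcnn2 ranged from 20.6 to 67.5 CPM (median 41.6) in PSC libraries, from 0.222 to 2.30 CPM (median 0.611) in S100GFP+ libraries and from 0 to 1.41 CPM (median 0.272) in NG2DsRed+ libraries. No library of another cell type came within the PSC range, and S100GFP+ and NG2DsRed+ libraries overlapped throughout. Its log2 fold changes of 5.67 (SE 0.47, adjusted p = 3.37e-11) and 6.61 (SE 0.45, adjusted p = 8.91e-13) passed by edgeR, and against S100GFP+ cells those of Kcnn2 and Kcnh8 were the largest increases among the 43 tested Kcn genes.

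Kcnn3 was lower in PSCs, from 1.25 to 8.45 CPM (median 2.85) in PSC libraries, from 6.65 to 25.6 CPM (median 12.7) in S100GFP+ libraries and from 5.18 to 10.2 CPM (median 6.01) in NG2DsRed+ libraries. The log2 fold change was -2.16 (SE 0.32, adjusted p = 1.79e-06) against S100GFP+ and -1.12 (SE 0.30, adjusted p = 0.00335) against NG2DsRed+ cells, with overlap in both cases. Kcnn4, known from blood cells and fibroblasts, overlapped widely between PSCs (8.53 to 59.7 CPM (median 24.5)) and S100GFP+ cells (8.04 to 63.6 CPM (median 30.3)), and had 0.456 to 5.16 CPM (median 1.39) in NG2DsRed+ cells. PSCs were higher than NG2DsRed+ cells by 3.90 (SE 0.47, adjusted p = 7.87e-08), and their difference from S100GFP+ cells, -0.17 (SE 0.43, adjusted p = 0.782), was smaller than its standard error. Among the sodium-activated channels, Kcnt2 had 1.09 ± 0.807 CPM in PSCs, 5.36 ± 2.51 CPM in S100GFP+ cells and 3.17 ± 1.79 CPM in NG2DsRed+ cells (SD), and PSCs were lower than both (-2.27 and -1.51 on the log2 scale).

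Among the Kcnq genes, which encode slowly opening channels of the M-current type, PSCs had more Kcnq5 and less Kcnq1 than either of the other cell types. Kcnq5 (chr1:21398403-21961942, minus strand) ranged from 0.175 to 17.4 CPM (median 9.34) in PSC libraries, from 0.138 to 3.29 CPM (median 0.790) in S100GFP+ libraries and from 0 to 1.89 CPM (median 0.850) in NG2DsRed+ libraries. In 8 of 9 PSC libraries it was at least 6.74 CPM, above all other libraries, and PSC library 18 was the exception at 0.175 CPM. The log2 fold changes were 3.16 (SE 0.58, adjusted p = 4.98e-05) and 3.63 (SE 0.55, adjusted p = 2.99e-06). A lincRNA on the other strand, Gm26580, which shares 3.1% of the exon bases of Kcnq5, had a mean of 6.82 CPM in PSCs, 0.301 in S100GFP+ and 0.320 in NG2DsRed+ cells.

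Kcnq1, the channel of epithelia and heart, ranged from 0 to 2.00 CPM (median 0.939) in PSC libraries, from 6.25 to 32.4 CPM (median 13.7) in S100GFP+ libraries and from 2.43 to 7.54 CPM (median 5.52) in NG2DsRed+ libraries. The PSC libraries were all below every S100GFP+ library and below every NG2DsRed+ library, with log2 fold changes of -4.33 (SE 0.50, adjusted p = 2.34e-08) and -2.68 (SE 0.47, adjusted p = 2.58e-05). The antisense gene Kcnq1ot1 shares 3.0% of its exon bases and was at 89.5, 125.8 and 121.1 CPM in PSCs, S100GFP+ and NG2DsRed+ cells.

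Kcnh8 (chr17:52602709-52979194, plus strand), a voltage-gated channel of the Elk group known from the nervous system, ranged from 32.8 to 52.0 CPM (median 47.9) in PSC libraries, from 0 to 2.63 CPM (median 0.585) in S100GFP+ libraries and from 0 to 1.07 CPM (median 0.304) in NG2DsRed+ libraries. PSC libraries lay close together, and the nearest other library was at 2.63 CPM. PSCs exceeded S100GFP+ cells by 5.65 (SE 0.46, adjusted p = 2.19e-11) and NG2DsRed+ cells by 7.00 (SE 0.45, adjusted p = 2.91e-13) on the log2 scale. Kcnh2, the ERG channel, was highest in NG2DsRed+ cells at 3.82 CPM on average and was lower in PSCs, with a log2 fold change of -3.06 (SE 0.67, adjusted p = 0.000418). The other 6 Kcnh genes did not pass the filter.

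The Kcne genes encode small subunits that modify Kcnq and other channels. Kcne4, an inhibitory one, ranged from 9.47 to 30.3 CPM (median 23.0) in PSC libraries, from 1.75 to 22.2 CPM (median 12.0) in S100GFP+ libraries and from 36.9 to 149 CPM (median 85.6) in NG2DsRed+ libraries. NG2DsRed+ libraries were above the rest, and PSCs were lower, with a log2 fold change of -2.08 (SE 0.31, adjusted p = 2.64e-06). Against S100GFP+ cells Kcne4 had a difference in PSCs of 0.76 (SE 0.32, adjusted p = 0.0556), short of the threshold by edgeR, and of 0.74 (adjusted p = 0.0443) by DESeq2. By limma-voom it was 1.01 (adjusted p = 0.0321), and by edgeR without the filter on low counts 0.79 (adjusted p = 0.034). It also passed by edgeR with the share of Lars2, Gm23935 and Gm15564 as a term (1.03, adjusted p = 0.0192). Without S100GFP+ libraries 14, 17 and 22 it was 1.25 (adjusted p = 0.00705). Under the other alternatives it did not pass. Kcne3 had 0.136 CPM in PSCs, 4.38 in S100GFP+ and 1.52 in NG2DsRed+ cells on average, and was lower in PSCs, with log2 fold changes of -4.89 (SE 0.71, adjusted p = 1.25e-06) and -3.37 (SE 0.68, adjusted p = 0.000177). Kcne1l was higher in PSCs than in NG2DsRed+ cells by 3.75 (SE 0.60, adjusted p = 7.21e-06), and its mean was 3.82 CPM in PSCs and 3.47 in S100GFP+ cells. Of the calcium-sensing Kcnip subunits, 1 of 4 was tested and it did not pass in any comparison.

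The 51 Kcn genes that did not pass the filter were sparse. A PSC library had counts on 5 to 25 of them, an S100GFP+ library on 16 to 51 and an NG2DsRed+ library on 18 to 30. Together they came to 10.3 to 23.1 CPM in a PSC library, 13.5 to 85.1 CPM in an S100GFP+ library and 13.8 to 22.8 CPM in an NG2DsRed+ library. In PSCs 11 Kcn genes had 0 counts in all 9 libraries, which allows up to 0.0380 CPM (3 counts over the 9 libraries, counting error only), and in NG2DsRed+ cells 4 had 0 counts, which allows up to 0.0450 CPM.

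S100GFP+ libraries did not vary together. Kcnj8, Kcna5 and Kcnj2 were highest in libraries 14, 17 and 22, the libraries in which the sum of endothelial markers was 542, 2048 and 1033 CPM, against 28.0 to 98.4 CPM in the other 5. The sum of pericyte and smooth muscle markers was also highest in these 3, at 882, 1558 and 1233 CPM, against 203 to 807 CPM in the other 5. Kcnj2, for example, had 5.29, 7.80 and 7.90 CPM in these 3 and 0 to 1.16 CPM in the others. Kcnj8 had 40.4, 41.2 and 58.9 CPM in them and 15.9 to 25.7 CPM in the others.

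Kcnn4, Kcnk13, Kcnq1 and Kcnab2 were low in libraries 14, 17 and 22 and higher in the others. Kcnn4 had 8.65, 8.04 and 9.22 CPM in those 3 and 21.5 to 63.6 CPM in the other 5. The sum of macrophage and leukocyte markers was 3460, 2278 and 1055 CPM in the 3 and 4971 to 10174 CPM in the 5, with all 5 markers of that list higher in S100GFP+ cells than in both other cell types and none of them at 0 in a whole cell type. What macrophages, leukocytes, endothelium, pericytes or smooth muscle contribute to the potassium channel levels of S100GFP+ libraries was not tested.

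**Figure D4:**
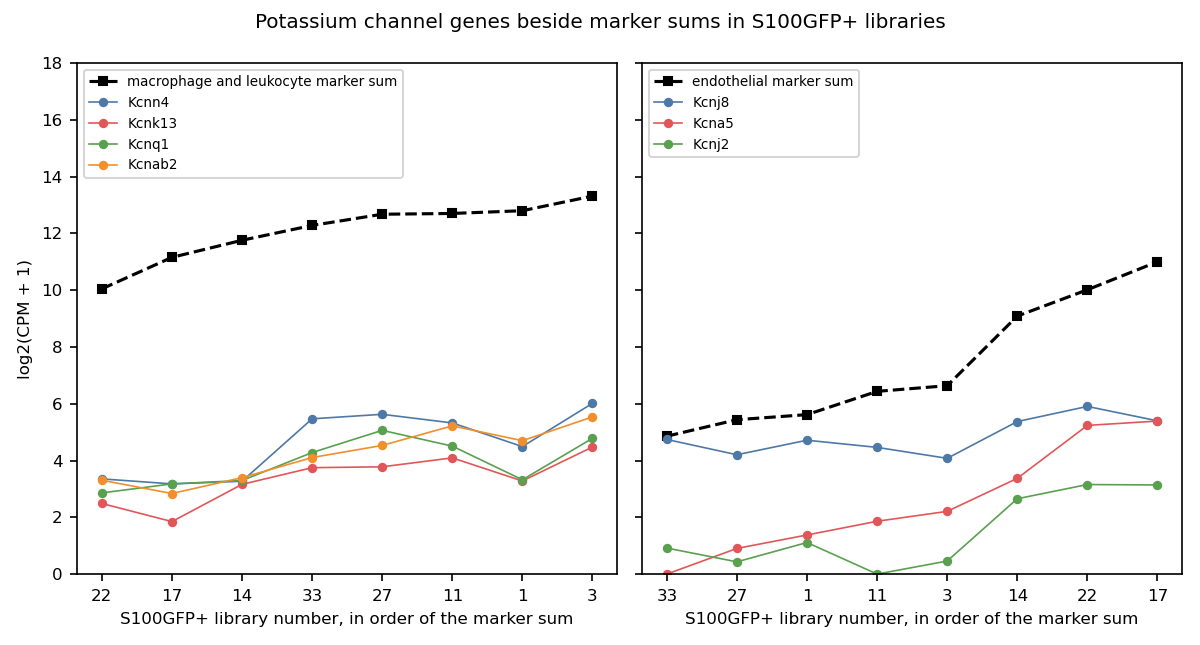
Levels, as log2(CPM + 1), of 4 potassium channel genes in each of the 8 S100GFP+ libraries beside the summed macrophage and leukocyte markers (left) and of 3 others beside the summed endothelial markers (right), with libraries ordered by the marker sum. Libraries 14, 17 and 22, at the left end of the left panel and the right end of the right panel, have the 3 lowest values of Kcnn4, at most 9.22 CPM, and the 3 highest of Kcnj8, at least 40.4 CPM.

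Genes that act with these channels were read from 2 lists. Of 16 auxiliary subunits and anchoring partners 9 were tested, with 2 higher (22.9% of all genes were) and 1 lower (24.1%) in PSCs than in S100GFP+ cells, and 3 higher (20.9%) and 4 lower (23.1%) than in NG2DsRed+ cells. The axonal partners of Kcna channels, Cntnap2 and Cntn2, did not pass the filter. Lower in PSCs than in NG2DsRed+ cells were Abcc9, Abcc8 (-4.02 on the log2 scale), Lrrc55 (-3.55) and Akap5 (-0.96).

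Of 19 genes of the sodium pump, K+-coupled chloride cotransport, pacemaker channels and water flux, 14 were tested. PSCs were higher than S100GFP+ cells for 5 (22.9% over all genes) and lower for 5 (24.1%), and higher than NG2DsRed+ cells for 1 (20.9%) and lower for 6 (23.1%). The glial pump subunit Atp1b2 (199, 15.2 and 195 CPM in PSCs, S100GFP+ and NG2DsRed+ cells) was higher in PSCs than in S100GFP+ cells by 3.72 (SE 0.39, adjusted p = 3.11e-09) on the log2 scale. Its difference from NG2DsRed+ cells, 0.03 (SE 0.32, adjusted p = 0.95), did not pass. Slc12a2, which carries sodium, K+ and chloride inward, was highest in NG2DsRed+ cells (197 to 320.0 CPM (median 254)), without overlap with PSCs (62.6 to 91.3 CPM (median 70.0)). Hcn2, a pacemaker channel, was the gene higher in PSCs than in both, by 2.06 (SE 0.40, adjusted p = 8.25e-05) and 1.52 (SE 0.36, adjusted p = 0.000828).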

How the data were processed

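Cells were sorted by FACS, RNA was amplified with the SMART-Seq v4 kit, and the authors used ea-utils and Btrim for trimming, HISAT2 for alignment and HTSeq for counting per gene. Per the labels, GRCm38 was the build in the submitters' processing notes. The sources used here give no tool versions, annotation or use of strand. The deposited table holds these raw counts without normalization, with a column for 27 of the 36 labelled libraries, matched by the library number in the titles, and the other 9 were not analysed here. Totals were 5221655 to 9592875 counts, so a gene at a few CPM rests on few counts, and PCR copies cannot be told from molecules. The 109 pairs of libraries of one cell type held 0 identical pairs and the least different pair still had a chi-square of 8.99 per degree of freedom.

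In R 4.3.3, edgeR 4.0.16 was run with TMM, filterByExpr (minimum count 10), a single quasi-likelihood fit with all 3 cell types, and p-values adjusted by Benjamini-Hochberg over all 15330 genes (threshold 0.05). SE was taken as log2 fold change over the square root of F. The processing was also run on simulated counts in which few genes were changed, and in PSCs only. Many more genes differed in these data, so that run does not show how accurate the fits are here. GENCODE M21 held 99.7% of the identifiers, and exon lengths are of merged exons. Promoter windows were RefSeq (GRCm38.p6), matched by symbol for 69 of the 94 Kcn genes, taking the start nearest to the GENCODE gene start. Alternatives were DESeq2 1.42.0, its size factors, limma 3.58.1 (voom with sample quality weights), no filter, a mean of 5 or more counts in a cell type, only the cell types compared, the share of Lars2, Gm23935 and Gm15564 as a term, and leaving out S100GFP+ library 22 or 14, 17 and 22. Leaving out PSC library 18 or 31 (the latter for its tendon and cartilage marker sum, mostly Col2a1) and each S100GFP+ library in turn was added after seeing the data.

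Members and lists were chosen with earlier results of these data known. Kcn genes with a mean of at least 5 CPM in a cell type are named with values, as are those past the threshold in the same direction in both PSC comparisons, the partner and marker lists and the 3 genes above; other Kcn genes named singly were picked after their values were seen. Some genes of these lists are not reported here by name and are left out of the plots, while counts over a list include them.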

Additional observations from a re-analysis of the deposited data

Results flagged for a closer look

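Sets of values of 1 named potassium channel gene in 1 cell type were examined on a log scale, while the levels below are in CPM. Among 51 sets, 5 had a library farther from the rest than Dixon's 95% criterion allows, and chance alone gives about 1 in 20. All 5 were the lowest of their cell type, and a log scale spreads low values more than high ones. In PSC library 18, Kcna6 was at 45.9 CPM (the next PSC library was at 92.1) and Kcnq5 at 0.175 CPM (next 6.74). This library also had counts on the fewest Kcn genes, 32. Kcnh8 was at 32.8 CPM in PSC library 31 (next 41.6), the PSC library with a tendon and cartilage marker sum of 4182 CPM, against at most 41.2 CPM in the other PSC libraries. Of that sum, Col2a1 gave 3859 CPM and Acan 285 CPM, while Scx and Tnmd were at most 2.60 and 18.9 CPM in any PSC library. Kcnd1 was at 1.11 CPM in S100GFP+ library 33 (next 4.02), and Kcne4 at 1.75 CPM in S100GFP+ library 3 (next 7.69). The causes were not tested.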

How the results depend on the processing

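The 9 Kcn genes that PSCs had above both others stayed so in all 11 alternatives, and of the 11 lower than both, 10 or 11 stayed so. The alternatives gave 983 values of the Kcn genes with a mean of at least 5 CPM in a cell type. Of these values, 938 kept direction and side of the threshold, 12 lost the threshold, 18 gained it and 15 changed sign, 0 of these 15 from a value past the threshold in the reported fit. Kcn genes under 5 CPM that are named above, such as Kcne3 and Kcnh2, are not among them. Without the filter on low counts, which tests 44705 genes, the Kcn genes lower in PSCs than in S100GFP+ cells went from 16 to 39 and those higher in S100GFP+ than in NG2DsRed+ cells from 15 to 30. Counted in either direction, the Kcn genes past the threshold in these comparisons went from 27 of 43 to 52 of 94 and from 26 of 43 to 43 of 94. Over all genes, also in either direction, they went from 7198 (47.0%) to 16556 (37%) and from 5099 (33.3%) to 10586 (23.7%). The median log2 fold change over all genes without the filter was -0.97 and 0.78. Per kilobase of exon, the share of Kcna in PSCs was 62.9% in place of 73.0%, and that of Kcnj in NG2DsRed+ cells 66.0% in place of 56.1%, since the lengths differ. For Kcna5 in PSCs against S100GFP+ cells the log2 fold change of -0.45 became 1.28 by limma-voom, 0.082 without S100GFP+ library 22, 2.26 without libraries 14, 17 and 22 and 0.16 with the share of Lars2, Gm23935 and Gm15564 as a term. That of Kcnj2 (-1.01) became 0.65 by limma-voom and 1.44 without 14, 17 and 22, and that of Kcnab1 (-0.15) became 0.064 without 22, 0.64 without all 3 and 0.13 with the term. Libraries 14, 17 and 22 held the highest S100GFP+ values of Kcna5, Kcnj2 and Kcnab1, so leaving them out raises these differences. Kcnk1 against NG2DsRed+ cells (-0.08) became 0.093 by limma-voom, 0.17 with the term and 0.14 without PSC library 18. Kcnq5 in S100GFP+ against NG2DsRed+ cells (0.47) became -0.17 by limma-voom, -0.013 without 22 and -0.47 without all 3. With each S100GFP+ library left out in turn, 13 to 17 Kcn genes were higher and 11 to 14 lower in S100GFP+ than in NG2DsRed+ cells, and the calls lost were those of Kcne3 (without 1, 3 or 27) and Kcnh8 (without 1, 22, 27 or 33). The causes were not tested. No paired analysis was possible because the sources used here do not say which libraries came from the same mouse. If libraries of different cell types share a mouse, the tests ignore that pairing. PSC and NG2DsRed+ libraries were not left out in turn, apart from PSC libraries 18 and 31. Depth limits statements on the 51 Kcn genes under the filter.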

Other observations

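Several Kcn genes that led in different cell types are neighbours in the genome (GENCODE M21, GRCm38). Kcna5, Kcna1 and Kcna6 lie in this order on chromosome 6, with 105.0 and 61.9 kb between them, and had means of 8.69, 379 and 115 CPM in PSCs and 83.8, 7.74 and 2.07 CPM in NG2DsRed+ cells. Kcna3 and Kcna2 are 63.1 kb apart on chromosome 3, and their means in PSCs were 1.40 and 567 CPM. Kcnj8 and Abcc9, which are 16.2 kb apart on chromosome 6, had the same order of cell types, with 492.8 and 554 CPM in NG2DsRed+ cells and 6.65 and 6.92 CPM in PSCs.

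In the 250 bases upstream of the start, the 7 genes with a window among the 9 higher in PSCs than in both had a median of 17.0 CG pairs (4 to 43), the 9 among the 10 higher in NG2DsRed+ cells than in both a median of 6.0 (1 to 31), and all 20595 genes a median of 8.0. Among those 9, the starts used for Kcnh2 and Kcnma1 were 22013 and 10286 bases from the GENCODE gene start, and the window with 31 pairs was that of Kcnma1. The letters GGGCGG, read on both strands, were in 4 of the 7 and 3 of the 9 windows and in 39.4% of all, and may overlap the CG pairs. ACAAAG was in 1 of 7, 1 of 9 and 15.6% of all windows, AACAAT in 0, 0 and 8.97%, and TATAAA in 0, 0 and 12.2%. Over all 69 Kcn windows, GGGCGG was in 46.4%, ACAAAG in 7.25%, AACAAT in 5.8% and TATAAA in 2.9%. These counts are a description of few windows, with no test.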
